A study of Mus musculus with 24 samples.

Results

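Expression of 10 genes of the fat cell, Fabp4, Adipoq, Plin1, Pparg, Cidec, Lep, Adrb3, Hcar1, Nnat and Retn, was followed in skin and bone of mice given proton radiotherapy. The 10 genes are the rows of the deposited tables whose identifiers map to these symbols in the GENCODE M21 annotation, out of 55471 genes in all. All 10 passed the filter on low counts in skin and in bone. Nnat and Hcar1 were selected on measured values, the difference between the 2 beams in skin, which they led, so the values of F-PRT against S-PRT in skin are given as a description, with no test, for every gene of the list.

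The series is titled for a mouse sarcoma model, and its 24 libraries of polyA-selected RNA form 6 groups of 4 biological replicates per the labels. The groups are skin F-PRT, skin S-PRT, skin Untreated, bone F-PRT, bone S-PRT and bone Untreated, all from female mice aged 10 weeks. F-PRT is taken to mean FLASH proton radiotherapy, in which protons are delivered at an ultra-high dose rate, and S-PRT to mean standard proton radiotherapy at a conventional dose rate. The labels are silent on strain, dose, body site, time after irradiation and whether the mice bore tumours, and nothing in them says whether skin and bone of the same number came from the same mouse.

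Total expected counts per library ran from 16418026 to 22088370 in skin and from 10909700 to 17361478 in bone. The tissue labels matched their markers: summed basal keratinocyte genes stood at 8728 to 33655 CPM (counts scaled to library size) in skin and 298 to 452 CPM in bone, and summed osteoblast genes at 93.1 to 1395 CPM in skin and 12616 to 32156 CPM in bone. Ibsp, a bone matrix gene, was at 0 in all skin libraries. Skin S-PRT 4 stood apart, with 10.2 CPM summed over 12 endothelial genes where the other skin libraries had 71.1 to 247 CPM, and with the top basal keratinocyte sum. Skin Untreated 1 had the next highest basal keratinocyte sum, 16158 CPM. In bone, Untreated 1 was the shallowest library and had the lowest neutrophil sum of the untreated libraries, F-PRT 3 the highest skeletal muscle sum and F-PRT 2 the highest nerve sum. The main counts of genes past the test in each tissue are therefore also given without these libraries.

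White adipocytes store triglyceride in a large lipid droplet and release it as fatty acids when catecholamines call for it. The nuclear receptor PPARγ, encoded by Pparg, together with C/EBP proteins switches on their gene programme, and the cells secrete hormones such as adiponectin and leptin. Beneath the dermis lies a layer of white fat, and bone marrow holds its own adipocytes, which are known to expand after marrow irradiation. A bulk library mixes all cells of the tissue, so fewer cells of a type and less RNA per cell cannot be told apart.

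The genes fall into roles, with positions on GRCm38 from GENCODE M21. Pparg (ENSMUSG00000000440, chromosome 6, 115360951 to 115490399, plus strand) encodes the regulator. Fabp4 (ENSMUSG00000062515, chromosome 3, 10204088 to 10208576, minus strand) encodes the fatty acid carrier of adipocytes. Plin1 (ENSMUSG00000030546, chromosome 7, 79720218 to 79732903, minus strand) encodes perilipin, which coats the lipid droplet and controls access of lipases. Cidec (ENSMUSG00000030278, chromosome 6, 113424634 to 113435760, minus strand) encodes a protein through which droplets fuse and enlarge. The secreted members are adiponectin, from Adipoq (ENSMUSG00000022878, chromosome 16, 23146536 to 23158028, plus strand), leptin, from Lep (ENSMUSG00000059201, chromosome 6, 29060220 to 29073877, plus strand), and resistin, from Retn (ENSMUSG00000012705, chromosome 8, 3655770 to 3660110, plus strand). The receptors are the β3 adrenoceptor, which starts lipolysis, from Adrb3 (ENSMUSG00000031489, chromosome 8, 27225776 to 27250616, minus strand), and the lactate receptor, which restrains lipolysis, from Hcar1 (ENSMUSG00000049241, chromosome 5, 123876736 to 123880020, minus strand). Nnat (ENSMUSG00000067786, chromosome 2, 157560078 to 157562522, plus strand) encodes neuronatin, a small membrane protein of the endoplasmic reticulum, and is an imprinted gene expressed from the paternal copy.

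All 10 are protein coding. Nnat lies inside Blcap, which runs on the opposite strand, and antisense gene models overlap Pparg and Adrb3. These overlaps are of gene spans, introns included, and the strand of the libraries is not stated. How far reads of such overlapping genes could be told apart was not tested. Blcap itself did not pass the test in skin (log2 change of irradiated against Untreated -0.06, SE 0.09, edgeR adjusted p = 0.782), and was higher in irradiated bone (0.38, SE 0.09, adjusted p = 0.00681).

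Of the 10 genes, 8 had at least 1 start in the RefSeq promoter table of GRCm38.p6. The 250 bases before the start are shown for 2 adipokine genes and for the 2 genes that led the difference between beams, since much of what follows turns on them. Capitals mark matches, on either strand, to the letters AGGTCA (nuclear receptor half-site), DR1 (a repeat of that half-site, the form PPARγ is known to bind, so that each DR1 match also holds half-site matches), TTGCNNAA (C/EBP core), CCAAT and TATAAA. In the stretches shown the only matches that overlap are in Lep, where a palindrome matches TTGCNNAA on both strands. The stretches are chr16:23146286-23146535 (plus) for Adipoq, chr6:29059971-29060220 (plus) for Lep, chr2:157559828-157560077 (plus) for Nnat and chr5:123880004-123880253 (minus) for Hcar1.
Adipoq: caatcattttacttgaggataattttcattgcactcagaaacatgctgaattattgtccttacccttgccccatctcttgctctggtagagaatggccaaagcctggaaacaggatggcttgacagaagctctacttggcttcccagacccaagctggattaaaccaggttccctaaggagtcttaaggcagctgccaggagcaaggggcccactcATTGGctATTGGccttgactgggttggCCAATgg
Lep: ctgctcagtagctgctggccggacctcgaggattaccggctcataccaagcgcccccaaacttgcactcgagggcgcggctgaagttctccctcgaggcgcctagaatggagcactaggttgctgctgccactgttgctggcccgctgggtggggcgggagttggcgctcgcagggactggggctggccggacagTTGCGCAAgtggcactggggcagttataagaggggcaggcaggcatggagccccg
Nnat: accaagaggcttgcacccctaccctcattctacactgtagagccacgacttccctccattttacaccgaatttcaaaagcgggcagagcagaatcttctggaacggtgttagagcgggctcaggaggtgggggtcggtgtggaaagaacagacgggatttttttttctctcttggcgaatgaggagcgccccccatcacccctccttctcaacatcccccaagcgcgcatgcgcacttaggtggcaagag
Hcar1: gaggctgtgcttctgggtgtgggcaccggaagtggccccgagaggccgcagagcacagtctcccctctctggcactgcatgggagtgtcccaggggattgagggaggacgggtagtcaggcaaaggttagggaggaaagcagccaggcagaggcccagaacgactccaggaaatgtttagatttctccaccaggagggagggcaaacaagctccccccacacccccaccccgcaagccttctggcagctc
The Adipoq stretch holds 3 CCAAT matches within 34 bases of the start and no CpG, whereas the Nnat stretch holds 12 CpG and no match to any of the 5 motifs. The Lep stretch holds the palindrome TTGCGCAA, a C/EBP core match on both strands, 55 to 48 bases before the start, and 16 CpG. Hcar1 has 6 CpG, the median over all 32851 promoters of the table, and no match. Over all those promoters CCAAT occurs in 33.8%, AGGTCA in 14%, TATAAA in 12.4%, TTGCNNAA in 9.56% and DR1 in 0.0335%. A match is a description of the letters only.

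Without irradiation, both tissues expressed all 10 genes, and skin carried more of 9 of them. On the per-length scale (TPM), which allows genes to be compared, Fabp4 led in untreated skin with 153 ± 18.8 TPM (mean ± SD, n = 4, as for every mean below) and in untreated bone with 83.1 ± 30.1 TPM. Adipoq followed with 51 ± 12.8 TPM in skin and 32.3 ± 13.4 TPM in bone. In skin the next places went to Cidec (37 ± 6.79 TPM), Nnat (34 ± 6.43 TPM) and Plin1 (28.8 ± 6.9 TPM), each of which overlapped its neighbours in this order. Retn (17.3 ± 4.86 TPM), Pparg (11.7 ± 3.59 TPM) and Lep (10.3 ± 3.25 TPM) did so too. Adrb3 (3.12 ± 0.601 TPM) and Hcar1 (1.29 ± 0.257 TPM) stood below all others and apart from each other.

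The order differed in bone. There Pparg followed Adipoq with 11.2 ± 2.13 TPM, followed by Plin1 (9.71 ± 2.87 TPM), Nnat (7.28 ± 6.41 TPM) and Cidec (6.02 ± 3.75 TPM), which overlapped one another. Retn (1.41 ± 0.696 TPM), Lep (0.713 ± 0.618 TPM), Hcar1 (0.685 ± 0.122 TPM) and Adrb3 (0.672 ± 0.31 TPM) formed a low set with overlapping ranges. Nnat ranged from 2.32 to 16.4 TPM among untreated bone libraries. Ucp1, the defining gene of brown fat, averaged 0.107 CPM or less in every group.

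**Figure D1:**
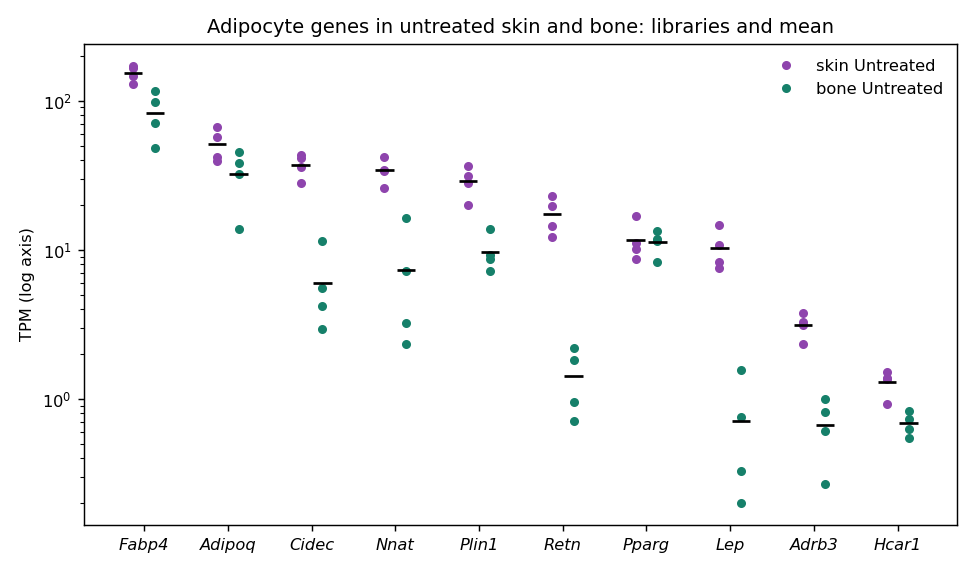
TPM of the 10 genes in each untreated library (points) with the group mean (bar), on a log axis, for skin and bone. Lep and Retn show the widest gap between the tissues, and Pparg means are 11.7 TPM in skin and 11.2 TPM in bone.

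In the comparison of untreated skin with untreated bone, 9 of 10 genes were higher in skin (edgeR quasi-likelihood test, Benjamini-Hochberg adjusted p under 0.05, n = 4 each), where 32.6% of all 20754 genes tested were higher. Lep differed most, 15.7-fold (log2 3.97, SE 0.54, adjusted p = 1.23e-06), with 8.26, 14.7, 10.7 and 7.5 TPM in untreated skin against 0.75, 0.2, 1.57 and 0.33 TPM in untreated bone. Retn was 11.4-fold and Cidec 6.38-fold higher in skin. Nnat (5.1-fold), Adrb3 (4.64-fold), Plin1 (2.94-fold), Hcar1 (1.97-fold), Adipoq (1.7-fold) and Fabp4 (1.67-fold) completed the 9. In CPM, scaled over all 24 libraries, the 4 skin libraries lay above the 4 bone libraries for each of the 10 genes, a pattern found in 27.9% of all genes. On the TPM scale the ranges overlapped for Adipoq (39.3 to 66.2 TPM in skin, 13.8 to 45.1 TPM in bone) and Pparg (8.71 to 16.9 TPM in skin, 8.29 to 13.3 TPM in bone). Pparg did not pass (log2 0.40, SE 0.28, 95% interval -0.18 to 0.98, adjusted p = 0.22). Without bone Untreated 1, Adipoq missed the threshold (log2 0.56, adjusted p = 0.0519). The count was 9 without skin S-PRT 4 and Untreated 1, and 8 without bone F-PRT 2, F-PRT 3 and Untreated 1.

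The main change with irradiation was in bone, where 8 of the 10 genes were higher in irradiated than in untreated libraries. The increase was 2.25-fold for the regulator Pparg, 1.99- to 2.67-fold for the lipid handling genes and 2.06-fold for adiponectin, and these 5 genes passed the test with each beam. Over all genes tested in bone, 17.3% were higher and 19.8% lower by the same test, the mean of F-PRT and S-PRT against Untreated in a fit of the 12 bone libraries. The median log2 change of the 10 genes was 1.04, against -0.01 over all 18848 genes tested. Levels below are CPM with TMM scaling, which compares libraries within a gene.

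Pparg stood at 49.7, 56.2, 54.3 and 48.6 CPM in bone F-PRT and at 53.8, 40.5, 53 and 57.7 CPM in bone S-PRT, against 14.5, 24.4, 26.9 and 25.7 CPM in bone Untreated. Every irradiated library lay above every untreated one. The log2 change was 1.17 (SE 0.15, adjusted p = 5.15e-05), a 2.25-fold higher level.

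Among the lipid handling genes, Plin1 rose most, by 1.41 on the log2 scale (SE 0.15, 2.67-fold, adjusted p = 1.06e-05). It stood at 85.6, 82.5, 79.6 and 108 CPM in bone F-PRT and at 104, 84.6, 71.3 and 66.7 CPM in bone S-PRT, against 27, 30.2, 41 and 29.5 CPM in bone Untreated. Fabp4 had 255, 238, 243 and 341 CPM in bone F-PRT and 260, 216, 195 and 221 CPM in bone S-PRT, against 101, 112, 145 and 133 CPM in bone Untreated. Both genes were higher in all 8 irradiated libraries than in any untreated one. Fabp4 rose by 1.00 (SE 0.13, adjusted p = 7.12e-05). Cidec, the droplet fusion gene, had 25.3, 19.8, 24.5 and 45.1 CPM in bone F-PRT and 38.9, 26.2, 25.6 and 25.4 CPM in bone S-PRT, against 12.3, 7.85, 22.9 and 10.8 CPM in bone Untreated. The groups overlapped through Untreated 3, and the log2 change was 1.09 (SE 0.28, adjusted p = 0.00809).

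Of the secreted members, Adipoq had 124, 125, 117 and 148 CPM in bone F-PRT and 153, 104, 96.8 and 105 CPM in bone S-PRT, against 33.8, 62.6, 72.4 and 66.6 CPM in bone Untreated. Its log2 change was 1.04 (SE 0.18, adjusted p = 0.000672), with no overlap. Retn was low in bone, with 2.48 to 4.26 CPM in F-PRT and 2.15 to 6.22 CPM in S-PRT, against 0.991 to 3.15 CPM in Untreated. It passed the test (log2 0.97, SE 0.34, adjusted p = 0.0383), but the groups overlapped, and the call was lost on leaving out any of 8 of the 12 libraries (adjusted p from 0.00962 to 0.126 over the 12 fits). Those 8 were F-PRT 1 and 3, S-PRT 1, 2 and 3, and Untreated 2, 3 and 4, with the highest p without Untreated 2. Lep had 4.07 to 11.4 CPM in bone F-PRT and 4.49 to 9.23 CPM in bone S-PRT, against 1.07 to 7 CPM in bone Untreated. Its log2 change of 1.02 (SE 0.44, 95% interval 0.07 to 1.98) did not pass (adjusted p = 0.0857). Lep did pass without Untreated 3 (log2 1.60, adjusted p = 0.0209), the untreated library with the most Lep, with DESeq2 (1.05, adjusted p = 0.0396) and with no filter on low counts (1.12, adjusted p = 0.0124).

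Both receptors were higher. Hcar1 had 6.88, 7.49, 6.57 and 10.5 CPM in bone F-PRT and 9.19, 8.36, 4.46 and 6 CPM in bone S-PRT, against 3.8, 3.43, 3.73 and 3.55 CPM in bone Untreated. Its untreated libraries were tightly grouped and below all irradiated ones (log2 1.03, SE 0.21, adjusted p = 0.00154). Adrb3 had 2.94 to 5.54 CPM in bone F-PRT and 3.22 to 7.05 CPM in bone S-PRT, against 0.762 to 4.23 CPM in bone Untreated (log2 1.22, SE 0.39, adjusted p = 0.026). The highest untreated library overlapped the irradiated ones. Adrb3 missed the threshold on leaving out Untreated 2, 3 or 4 (adjusted p = 0.0785, 0.0548 and 0.0798).

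Nnat did not pass the test in bone. It had 21.8, 5.96, 16.8 and 13 CPM in bone F-PRT and 18, 10.2, 11.8 and 7.27 CPM in bone S-PRT, against 15.5, 4.19, 23.3 and 4.29 CPM in bone Untreated. The spread within each group covered the others, and its log2 change of 0.15 (SE 0.45, 95% interval -0.83 to 1.12, adjusted p = 0.825) did not pass. In all, 5 genes (Pparg, Plin1, Fabp4, Adipoq and Hcar1) had no overlap between irradiated and untreated bone, a pattern held by 9.61% of all genes in the same direction.

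**Figure D2:**
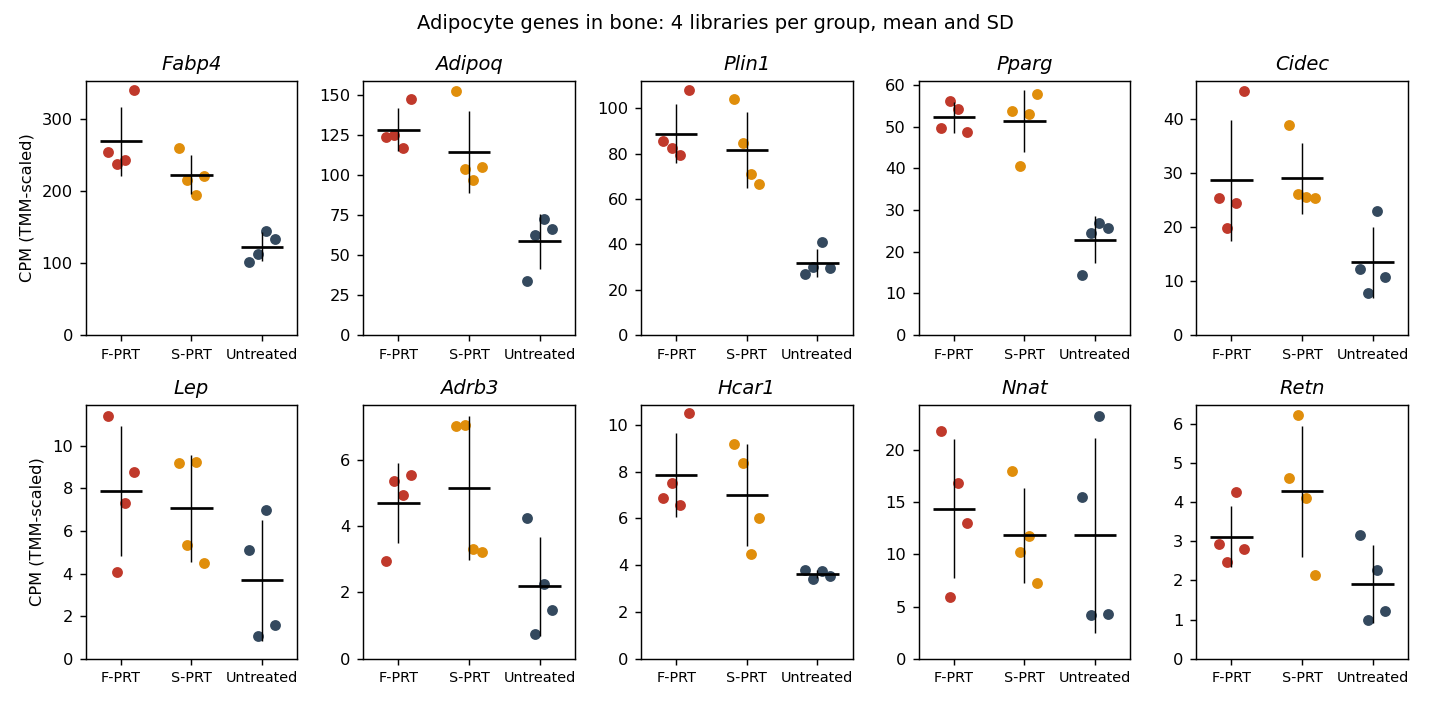
CPM of each gene in the 4 bone libraries of F-PRT, S-PRT and Untreated (points), with the mean (horizontal bar) and SD (vertical line). Pparg, Plin1, Fabp4, Adipoq and Hcar1 are above every untreated library in all irradiated libraries, while Nnat overlaps in all groups.

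Without bone F-PRT 2, F-PRT 3 and Untreated 1, again 8 of 10 genes passed, with log2 changes of 1.41 for Plin1, 0.99 for Fabp4, 0.97 for Pparg and 0.90 for Adipoq. The counts by beam were then 7 for F-PRT and 8 for S-PRT. Leaving out 1 library at a time gave 6 to 8 genes. On the deposited TPM scale the difference was wider: Pparg averaged 44.3 ± 3.74 TPM in bone F-PRT and 37.4 ± 7.26 TPM in bone S-PRT, against 11.2 ± 2.13 TPM in bone Untreated. TPM carry no TMM scaling, and the widening was not particular to Pparg. Blcap, outside the list, averaged 14.6 TPM in bone F-PRT and 6.74 TPM in bone Untreated, against 24.5 and 18.4 CPM.

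Each beam taken alone showed the same direction. Bone F-PRT against Untreated had 6 of 10 genes higher (background 15.5%), namely Plin1 (log2 1.48), Pparg (1.18), Fabp4 (1.13), Adipoq (1.12), Hcar1 (1.11) and Cidec (1.08). Adrb3 (log2 1.15, adjusted p = 0.0569), Lep (1.10, adjusted p = 0.103), Retn (0.74, adjusted p = 0.153) and Nnat (0.29, adjusted p = 0.706) did not pass. Bone S-PRT against Untreated had 8 of 10 genes higher (background 13.3%): Plin1 (log2 1.35), Adrb3 (1.28), Retn (1.20), Pparg (1.15), Cidec (1.10), Adipoq (0.96), Hcar1 (0.95) and Fabp4 (0.86). Lep (0.95, adjusted p = 0.174) and Nnat (0.01, adjusted p = 0.992) did not pass. The 2 comparisons share the untreated libraries. Without Untreated 1 the count for F-PRT was 8, with Adrb3 and Retn added (adjusted p = 0.0066 and 0.0419). Adrb3 also passed for F-PRT with DESeq2 (adjusted p = 0.0233), with voom (0.00867), with no filter on low counts (0.00755) and without F-PRT 1 (0.0429). Lep did so with no filter (0.0189) and without Untreated 3 (0.026). Cidec missed the threshold for F-PRT without F-PRT 4 (adjusted p = 0.0648), Untreated 2 (0.0517) or Untreated 4 (0.0502), and for S-PRT without S-PRT 1 (0.061), Untreated 2 (0.054) or Untreated 4 (0.0523). The count for S-PRT fell to 5 without S-PRT 1, Untreated 2 or Untreated 4, through Adrb3 (adjusted p = 0.113, 0.1 and 0.103) and Retn (0.066, 0.0875 and 0.084). Adrb3 was also lost for S-PRT without F-PRT 2 (0.0506), S-PRT 2 (0.0886) or Untreated 3 (0.0743). Retn was also lost without S-PRT 2 (0.0769). Fitted on the S-PRT and Untreated libraries alone, both missed the threshold (0.0655 for Adrb3 and 0.0515 for Retn). Lep was gained for S-PRT without Untreated 3 (0.0454).

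Between the beams in bone, edgeR called 0 of the 10 genes, with 0 at an unadjusted p under 0.05 and 0 by DESeq2. Over all genes 0.00531% were called and 3.36% had an unadjusted p under 0.05. The log2 difference of F-PRT minus S-PRT for Fabp4 was 0.27 (95% interval -0.04 to 0.59) and for Hcar1 0.16 (-0.30 to 0.63). For Nnat it was 0.28, with an interval of -0.82 to 1.38 that also holds the size seen in skin. Differences of the other 7 genes ran from -0.45 for Retn to 0.17 for Adipoq, and each interval included 0. Equality of the beams is not shown by these intervals.

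Markers of other cells moved in bone alongside the adipocyte genes, where 17.3% of all genes were higher and 19.8% lower. Of 12 neutrophil genes, 11 were lower and the median log2 change was -4.59, with a summed level of 1471 to 2378 CPM in F-PRT and 1733 to 2680 CPM in S-PRT, against 4660 to 18169 CPM in Untreated. Of 12 macrophage and monocyte genes, 10 were higher (median 1.26), with summed levels of 1563 to 1796 CPM in F-PRT and 946 to 1682 CPM in S-PRT, against 386 to 872 CPM in Untreated. Of 12 fibroblast and matrix genes, 10 were higher (median 0.69). Their summed level was 26017 to 49741 CPM in F-PRT and 41261 to 46936 CPM in S-PRT, against 18735 to 32729 CPM in Untreated. Endothelial genes were higher for 6 of 12 (summed 594 to 693 CPM in F-PRT and 493 to 690 CPM in S-PRT, against 348 to 414 CPM in Untreated). Osteoblast genes were higher for 6 of 11 (summed 16328 to 32156 CPM in F-PRT and 27117 to 30888 CPM in S-PRT, against 12616 to 21871 CPM in Untreated). Skeletal muscle passed for 0 of 12 genes by edgeR, and for 0 at an unadjusted p under 0.05. No marker of these lists was at 0 in all libraries of a bone group. Basal keratinocyte genes, low in bone, were higher for 5 of 9 tested and lower for 1, with sums of 372 to 451 CPM in F-PRT and 331 to 452 CPM in S-PRT, against 298 to 450 CPM in Untreated, where Krt15 was at 0. Without F-PRT 2, F-PRT 3 and Untreated 1, 10 of 11 osteoblast genes and 12 of 12 fibroblast and matrix genes were higher. Their part in the result for adipocyte genes was not tested.

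Other genes of the fat cell, from lists by function, also changed in bone, read against 17.3% of all genes higher and 19.8% lower. Secreted adipokines outside the 10 were higher for 9 of 10 genes (median log2 change 1.15). Apln, which encodes the vascular peptide apelin, averaged 11.2 ± 2.63 CPM in bone F-PRT and 11.1 ± 2.49 CPM in bone S-PRT, against 2.33 ± 0.717 CPM in bone Untreated (4.73-fold, adjusted p = 1.12e-05). Rarres2, which encodes the chemokine-like chemerin, was 2.22-fold higher. Fatty acid synthesis was higher for 9 of 12 genes (median 0.84), among them Fasn, fatty acid synthase, at 202 ± 28.5 CPM in bone F-PRT and 275 ± 72.2 CPM in bone S-PRT, against 112 ± 9 CPM in bone Untreated (2.1-fold). Pnpla3, which encodes a lipid droplet protein, was 3.57-fold higher.

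Fatty acid uptake and triglyceride assembly had 7 of 13 genes higher and 2 lower (median 0.58). Lpl, the lipase that frees fatty acids from lipoproteins in capillaries, averaged 725 ± 53.7 CPM in bone F-PRT and 584 ± 34.6 CPM in bone S-PRT, against 218 ± 41.8 CPM in bone Untreated (2.98-fold, adjusted p = 8.49e-07). Dgat1, which catalyses the last step of triglyceride synthesis, went the other way, with 20.8 ± 2.1 CPM in bone F-PRT and 22.5 ± 1.89 CPM in bone S-PRT, against 52.7 ± 6.37 CPM in bone Untreated (log2 -1.29, adjusted p = 2.92e-07). Lipid droplet and lipolysis genes were higher for 5 of 11 (median 0.36), including Fitm2 (1.72-fold), needed for droplet formation, and Pnpla2 (1.53-fold), which encodes the lipase that starts lipolysis.

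Regulators and receptors were mixed. Adipogenic transcription factors were higher for 5 of 12 genes and lower for 3 (median 0.38), with Zfp423, a factor of preadipocyte commitment, 2.05-fold higher and Klf5, a zinc finger factor, lower (log2 -1.20). Hormone and metabolite receptors were higher for 3 of 13 and lower for 3 (median 0.30). Adipor1, which encodes an adiponectin receptor, was among those lower (log2 -0.72, adjusted p = 1.61e-05). Brown and beige fat genes were higher for 1 of 8 tested, Prdm16 (1.38-fold), and lower for 1, Dio2 (log2 -1.06). Adipocyte progenitor genes were higher for 2 of 10 and lower for 2 (median 0.08), with Ly6a, which encodes the surface antigen Sca-1, 2.78-fold higher and Pi16 lower (log2 -2.08). Without F-PRT 2, F-PRT 3 and Untreated 1, 16.1% of all genes were higher and 16.9% lower. The counts higher and lower were then 9 and 0 for adipokines, 9 and 1 for synthesis, 7 and 2 for uptake and triglyceride genes, and 4 and 1 for lipid droplet genes. They were 5 and 3 for transcription factors, 4 and 2 for receptors, 2 and 1 for brown and beige fat, and 3 and 2 for progenitor genes.

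In skin the 10 genes did not move together with irradiation. Only Nnat passed the test, lower in irradiated than in untreated skin, with most of the fall in S-PRT. Over all 19038 genes, 2.01% were higher and 3.49% lower. The median log2 change of the 10 genes was -0.09, against -0.01 over all genes. The contrast, the mean of F-PRT and S-PRT against Untreated, does not contain the difference between beams by which Nnat and Hcar1 were chosen. It does use the same libraries and the same estimate of their spread, so its p-values for these 2 genes are not free of that choice.

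Nnat had 52.4, 45.2, 35.7 and 63 CPM in skin F-PRT and 25.4, 22.9, 22.7 and 25.4 CPM in skin S-PRT, against 55.6, 58.5, 56.2 and 52.9 CPM in skin Untreated. In CPM the S-PRT libraries were all below the rest, and the F-PRT libraries overlapped the untreated ones. On the TPM scale S-PRT 1 (26.15 TPM) lay just above Untreated 4 (26.06 TPM). For both beams together the log2 change was -0.70 (SE 0.12, 95% interval -0.97 to -0.43, adjusted p = 0.00521). It was also -0.70 without skin S-PRT 4 and Untreated 1 (adjusted p = 0.00517), and passed on leaving out any 1 of the 12 libraries. That fit again called 1 of the 10 genes, while its share of all genes was far above that of the full set, at 13.3% higher and 11.9% lower. With the 8 irradiated libraries treated as 1 group, so that the gap between beams counts as spread, the log2 change of -0.61 did not pass (adjusted p = 0.218). The values for each beam, with no test, were -0.19 for F-PRT against Untreated and -1.21 for S-PRT against Untreated.

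In CPM, Pparg was lower in every irradiated skin library than in any untreated one, a pattern held by 3.79% of all genes, but missed the threshold. It had 19.8, 21.9, 14.7 and 20.4 CPM in skin F-PRT and 17.9, 20.4, 8.13 and 5.45 CPM in skin S-PRT, against 32.2, 27.4, 26.4 and 27.1 CPM in skin Untreated. The 2 lowest libraries were S-PRT 3 and 4, and the log2 change was -0.84 (SE 0.28, 95% interval -1.44 to -0.24, adjusted p = 0.11). Without S-PRT 4 it passed at a smaller change (log2 -0.70, adjusted p = 0.0376), as it did in voom with quality weights (-0.69, adjusted p = 0.0311). Without both S-PRT 4 and Untreated 1 it did not (-0.63, adjusted p = 0.0641). On the TPM scale the groups overlapped. Pparg had 9.14 to 11 TPM in skin F-PRT and 2.97 to 10.8 TPM in skin S-PRT, against 8.71 to 16.9 TPM in skin Untreated.

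The other 8 genes ranged from -0.37 for Lep to 0.18 for Plin1, with each 95% interval including 0. The interval for Fabp4 was -0.53 to 0.27, for Adipoq -0.52 to 0.42 and for Plin1 -0.24 to 0.59, all below the log2 change of 1.00 or more that the same genes had in bone.

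**Figure D3:**
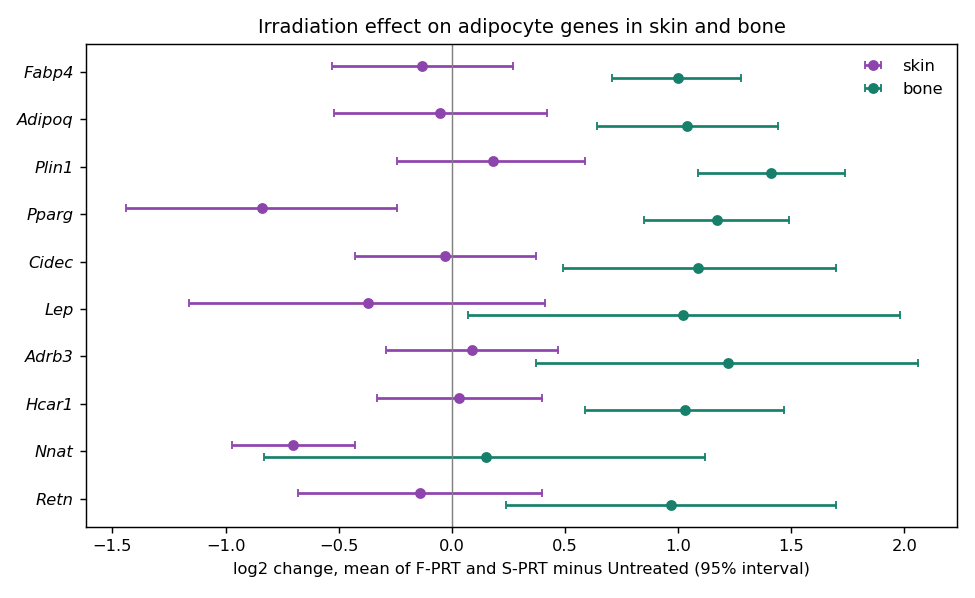
Log2 change of the mean of F-PRT and S-PRT minus Untreated for each gene, with its 95% interval, in skin (upper point of each pair) and bone (lower point). Bone values lie between 0.15 and 1.41, and skin values between -0.84 and 0.18.

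Taken by beam against Untreated, edgeR called 0 of the 8 genes other than Nnat and Hcar1 in skin. For F-PRT, where 1% of all genes were higher and 1.39% lower, 1 of the 8, Adrb3, had an unadjusted p under 0.05 (log2 0.49, adjusted p = 0.27), against 14.9% of all genes, and DESeq2 called 0. Fitted on the F-PRT and Untreated libraries alone, Pparg passed (log2 -0.56, adjusted p = 0.0398). For S-PRT, where 1.83% of all genes were higher and 2.52% lower, Pparg (log2 -1.12, adjusted p = 0.0855) and Fabp4 (-0.58, adjusted p = 0.178) had an unadjusted p under 0.05, against 16.8% of all genes. DESeq2 and voom each called 1 gene there, Pparg (adjusted p = 0.0251 and 0.0343). Without S-PRT 2, which had the most Fabp4 and Adipoq of its group, 2 genes passed, Pparg (log2 -1.42, adjusted p = 0.0403) and Fabp4 (log2 -0.81, adjusted p = 0.043).

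The values of F-PRT minus S-PRT in skin, which chose Nnat and Hcar1, were above 0 for all 10 genes, with a median log2 of 0.64. Values above 0 were held by 46.6% of all genes, and nothing is read from that share. Hcar1 had 12.9, 8.4, 11 and 8.55 CPM in skin F-PRT and 3.66, 5.74, 4.19 and 4.57 CPM in skin S-PRT, with 6.3, 7.24, 7.2 and 5.9 CPM in skin Untreated between them. Its log2 difference between the beams was 1.17, and its values against Untreated were 0.62 for F-PRT and -0.55 for S-PRT. The difference for Nnat was 1.03. Adrb3 had 14, 15.1, 10.7 and 11.7 CPM in skin F-PRT and 6.79, 8.56, 4.9 and 9.14 CPM in skin S-PRT. These 2 beams did not overlap for Nnat, Hcar1 and Adrb3, as for 1.37% of all genes in this direction, and since these values chose Nnat and Hcar1 nothing is read from that share either. The log2 difference was 0.89 for Fabp4, 0.81 for Adrb3, 0.66 for Adipoq, 0.62 for Lep, 0.57 for Cidec, 0.56 for Pparg, 0.35 for Plin1 and 0.34 for Retn. No gene of the whole table passed the adjusted threshold in this comparison (0%). S-PRT 2 was the highest of its group for Fabp4, Adipoq, Plin1, Pparg, Cidec, Lep, Hcar1 and Retn, and S-PRT 3 and 4 were the lowest pair for Fabp4, Adipoq, Plin1, Pparg, Cidec, Lep and Retn. Without S-PRT 4 and Untreated 1 the median over the 10 genes was 0.49. Without S-PRT 2 the difference was 1.12 for Fabp4, 1.01 for Adipoq, 0.84 for Cidec, 0.77 for Retn and 0.64 for Plin1.

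**Figure D4:**
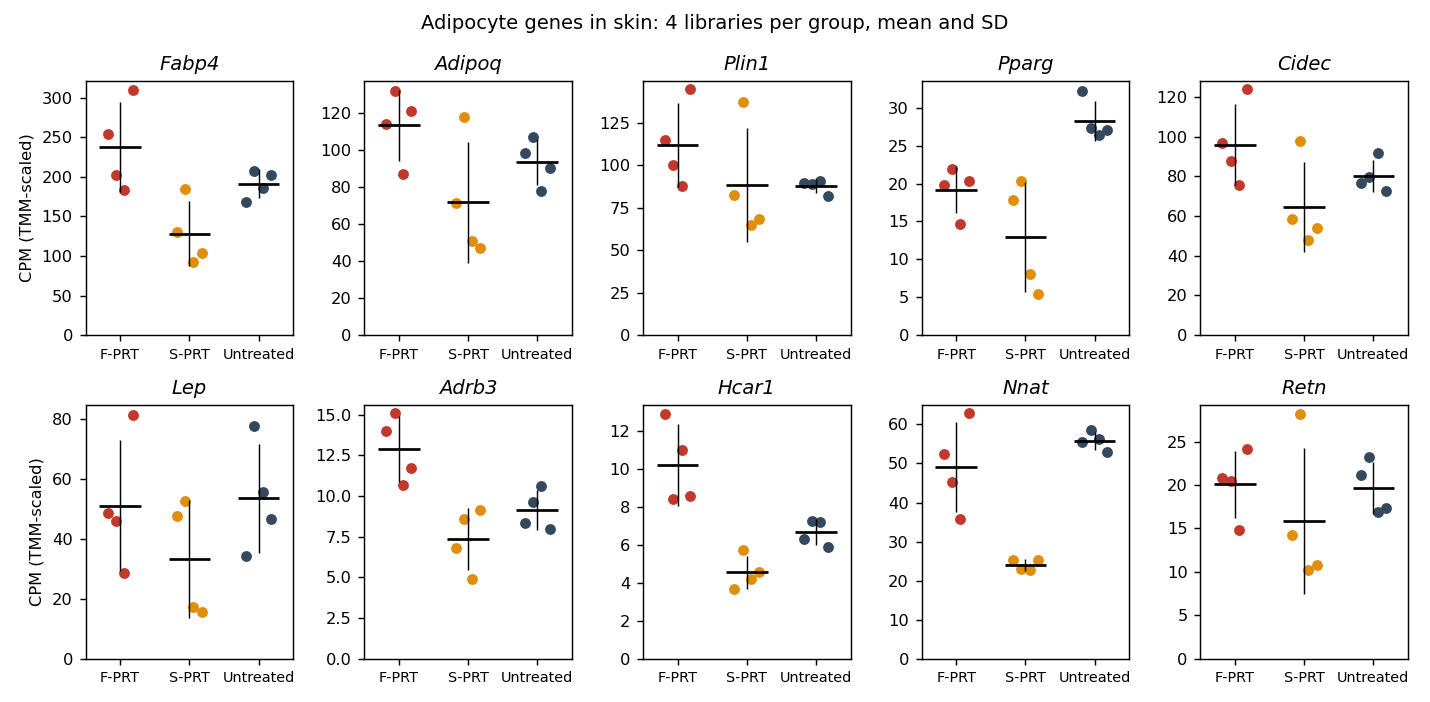
CPM of each gene in the 4 skin libraries of F-PRT, S-PRT and Untreated (points), with the mean (horizontal bar) and SD (vertical line). For Nnat the S-PRT libraries sit at 22.7 to 25.4 CPM, below all F-PRT and untreated libraries, and for Pparg both beams sit below the untreated libraries.

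Hcar2, the niacin receptor gene of the same family as Hcar1, had 63 ± 6.46 CPM in skin F-PRT and 52.2 ± 12.5 CPM in skin S-PRT, against 69.5 ± 11.7 CPM in skin Untreated. Its change with irradiation did not pass (log2 -0.28, adjusted p = 0.344). Blcap, which spans Nnat, had 33.2 ± 3.36 CPM in skin F-PRT and 31 ± 1.8 CPM in skin S-PRT, against 33.3 ± 1.67 CPM in skin Untreated.

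Sebaceous gland genes moved in skin, where the test called 2.01% of all genes higher and 3.49% lower. Of 11, 8 were lower (median log2 change -1.52), with a summed level of 843 to 1266 CPM in F-PRT and 278 to 1058 CPM in S-PRT, against 2163 to 2978 CPM in Untreated. Endothelial genes summed to 219 to 247 CPM in F-PRT and 10.2 to 240 CPM in S-PRT, against 71.1 to 182 CPM in Untreated. Fibroblast and matrix genes summed to 4182 to 5264 CPM in F-PRT and 737 to 6202 CPM in S-PRT, against 1286 to 3953 CPM in Untreated. In these 2 lists edgeR called 0 of 12 genes each, with 2 of 12 in each at an unadjusted p under 0.05. Both lists were lowest in S-PRT 4, one of the 2 libraries lowest in Pparg, and without S-PRT 4 and Untreated 1 they had 11 of 12 and 12 of 12 genes higher. That fit without S-PRT 4 and Untreated 1 called 13.3% of all genes higher and 11.9% lower. Macrophage and monocyte genes summed to 390 to 566 CPM in F-PRT and 104 to 567 CPM in S-PRT, against 129 to 386 CPM in Untreated, with 0 of 11 called by edgeR, 2 at an unadjusted p under 0.05, and 7 of 11 higher without those 2 libraries. The sebaceous count was 8 of 11 lower in both fits. No marker of these 4 lists was at 0 in all libraries of a skin group.

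Hair follicle genes summed to 14.5, 15.7, 17.1 and 57.1 CPM in skin F-PRT and to 1237, 19.1, 24.8 and 227 CPM in skin S-PRT, against 12.7, 18.4, 44.7 and 15.3 CPM in skin Untreated. The S-PRT libraries 1 and 4 stood above all others. For S-PRT against Untreated 1 of 8 genes tested was higher, with 8 of 8 at an unadjusted p under 0.05 and a median log2 change of 4.21. With both beams together edgeR called 0 of 8 (3 at an unadjusted p under 0.05, median 1.88), and the median of F-PRT minus S-PRT was -4.37. Neutrophil genes summed to 22 to 26.2 CPM in F-PRT and 9.14 to 28.8 CPM in S-PRT, against 27.2 to 71.3 CPM in Untreated, with 2 of 5 tested lower. Mpo was at 0 in F-PRT, Elane and Ngp in S-PRT and Ltf in Untreated. Skeletal muscle genes summed to 339 to 5864 CPM in F-PRT and 513 to 17765 CPM in S-PRT, against 8.09 to 4496 CPM in Untreated, with 0 of 12 called by edgeR, 0 at an unadjusted p under 0.05, and a median F-PRT minus S-PRT difference of -1.46. The part of these 7 lists in the values of adipocyte genes was not tested.

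Other genes of the fat cell in skin, from the same lists by function, are read against 2.01% of all genes higher and 3.49% lower. A bulk library does not show in which cells they changed, and the part of sebaceous gland cells was not tested. Fatty acid synthesis was lower for 4 of 12 genes (median -0.53), with Elovl6, a fatty acid elongase, at 519 ± 164 CPM in skin F-PRT and 317 ± 152 CPM in skin S-PRT, against 992 ± 228 CPM in skin Untreated (log2 -1.29, adjusted p = 0.027). Acly, whose enzyme makes acetyl-CoA from citrate, and Slc25a1, whose carrier exports that citrate from mitochondria, fell by 0.62 and 0.76 on the log2 scale. Lipid droplet and lipolysis was lower for 3 of 11, Plin2 (log2 -1.33, adjusted p = 0.00156), Mgll (-1.32, adjusted p = 0.00187) and Fitm2 (-0.48, adjusted p = 0.0261). Mgll encodes monoglyceride lipase, the last enzyme of lipolysis. Plin2, which coats droplets in many cell types, averaged 98.8 ± 10.6 CPM in skin F-PRT and 70.4 ± 23.6 CPM in skin S-PRT, against 210 ± 40.6 CPM in skin Untreated.

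Fatty acid uptake and triglyceride assembly was lower for 2 of 13, Dgat1 (log2 -0.69) and Gpam (-0.60), which encodes the first enzyme of glycerolipid synthesis. Brown and beige fat was lower for 3 of 10 tested, Ppara, Cidea and Elovl3 (log2 -1.19, -1.82 and -1.49), of which Cidea and Elovl3 also stand on the sebaceous gland list. Secreted adipokines were lower for 2 of 10, Nrg4 (log2 -1.52, adjusted p = 0.000363) and Nampt (-0.72, adjusted p = 0.0167). Adipocyte progenitor genes were the exception, with 3 of 10 higher: Ly6a (2.18-fold), Cd55 (1.75-fold) and F3 (2.11-fold), surface proteins used to sort progenitors. For transcription factors and for receptors edgeR called 0 of 12 and 0 of 13, with 4 and 3 at an unadjusted p under 0.05. Cebpb and Cebpa, partners of Pparg, had log2 changes of -0.50 and -0.46 (adjusted p = 0.0922 and 0.186), and Nfia, a nuclear factor I gene, 0.23 (adjusted p = 0.162).

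These counts depended on S-PRT 4 and Untreated 1. The fit without them called 13.3% of all genes higher and 11.9% lower, the shares to read its counts against. In that fit fatty acid synthesis was lower for 6 of 12 genes, with Scd1, the desaturase that makes oleate, among those added (log2 -1.09, adjusted p = 0.00516). Lipid droplet genes had 4 of 11 lower and 1 higher, Bscl2, which encodes seipin (0.48, adjusted p = 0.000824). Adipokines then had 4 of 10 higher, Apln, Rarres2, Sfrp5 and Serpina12 (log2 1.18, 1.04, 0.88 and 1.18), and still 2 lower, Nrg4 (-1.44) and Nampt (-0.67). Transcription factors had 5 of 12 higher, among them Zfp423 (0.60) and Ebf1 (0.72), receptors 3 of 13 higher and progenitor genes 7 of 10 higher, among them Pdgfra (0.71) and Pi16 (1.45). Uptake and triglyceride genes had 2 of 13 lower and 1 higher, and brown and beige fat again 3 of 10 lower.

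**Figure D5:**
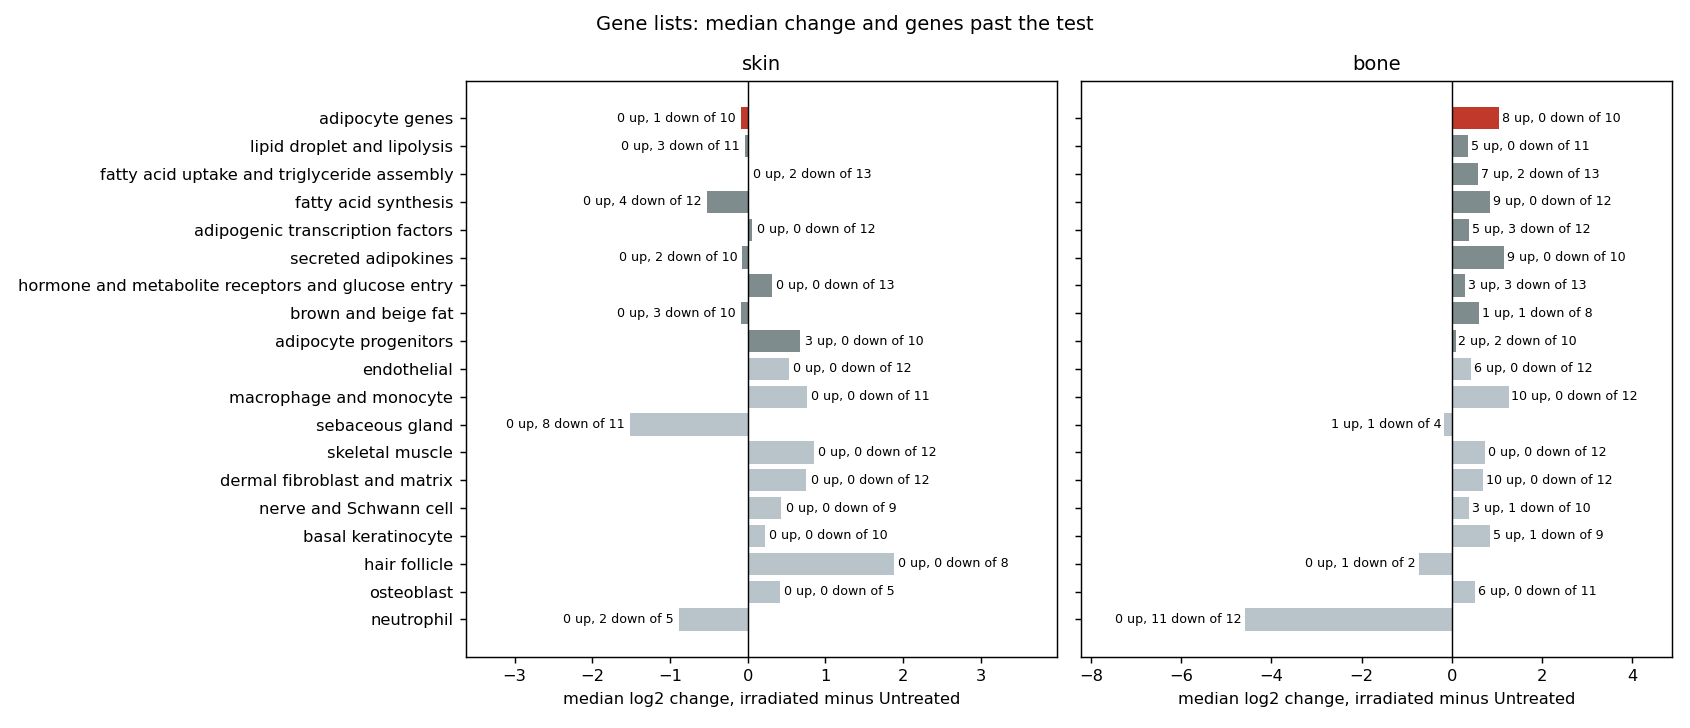
Median log2 change of irradiated minus Untreated for the 10 adipocyte genes (red), lists of other fat cell genes (dark grey) and lists of other cell types (light grey), in skin (left) and bone (right), with the number of genes past the test in each direction. The 10 genes stand at -0.09 in skin and at 1.04 in bone, and the neutrophil list at -4.59 in bone.

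The difference between tissues was tested directly, as the change with irradiation in skin minus that in bone, on all 24 libraries. It passed for 6 of 10 genes, all lower in skin, where 7.46% of 20754 genes tested were lower. Pparg differed most (log2 -2.03, SE 0.35, adjusted p = 0.000343), followed by Plin1 (-1.26, SE 0.26, adjusted p = 0.00176) and Fabp4 (-1.15, SE 0.24, adjusted p = 0.00222). Cidec (-1.14), Adipoq (-1.11) and Hcar1 (-1.02) also passed (adjusted p = 0.0323, 0.018 and 0.00983). Lep (-1.42, adjusted p = 0.132), Adrb3 (-1.15, adjusted p = 0.0737), Retn (-1.14, adjusted p = 0.0843) and Nnat (-0.87, adjusted p = 0.277) did not. The skin libraries that chose Hcar1 and Nnat enter this test, so the p-values of these genes are not free of that choice. The median over the 10 genes was -1.14, against -0.00 over all genes. Without skin S-PRT 4 and Untreated 1, and without bone F-PRT 2, F-PRT 3 and Untreated 1, again 6 of 10 were lower, with Adipoq lost (-0.96, adjusted p = 0.0548) and Adrb3 added (-1.54, adjusted p = 0.0225) in the second of these fits. With all libraries, the Cidec call was lost with voom (adjusted p = 0.0656), and Adrb3 passed with DESeq2 (0.0358) and with voom (0.0104). The Cidec call was also lost without bone S-PRT 1, bone Untreated 1, 2 or 4, or skin Untreated 2 or 3 (adjusted p = 0.0523, 0.0612, 0.0887, 0.0772, 0.0534 and 0.0617). Calls were gained for Lep and Nnat without bone Untreated 3 (adjusted p = 0.0479 and 0.0475), for Adrb3 without bone Untreated 1 or skin S-PRT 4 (0.00814 and 0.0499) and for Retn without bone Untreated 1, bone S-PRT 4 or skin S-PRT 2 (0.0353, 0.0434 and 0.0174).

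Across libraries, the genes outside the list with the pattern most like the mean of 8 of the 10 (all but Nnat and Hcar1) were found by Pearson correlation of log2 CPM over the 12 libraries of a tissue, which share treatment groups. In skin these were Cfd (r = 0.95, Spearman rho 0.89), which encodes the adipokine adipsin, Aoc3 (r = 0.95, rho 0.93), Klhdc7a (0.92, 0.85), Trf (0.92, 0.91) and Slc7a10 (0.92, 0.89). Without the 2 libraries farthest from the median they stood at r = 0.86, 0.84, 0.72, 0.84 and 0.83. In bone they were Aoc3 (r = 0.99, rho 0.97), Ehd2 (0.98, 0.90), Prpsap1 (0.97, 0.85), Trarg1 (0.97, 0.90), which encodes a regulator of glucose transporter traffic, and Fzd4 (0.97, 0.96). Without the 2 farthest libraries they stood at 0.97, 0.96, 0.94, 0.96 and 0.92. Aoc3, an amine oxidase abundant in adipocytes, was thus among the 5 most alike in each tissue.

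Over the 12 skin libraries, the 2 genes leading the beam difference had a lower r with this mean than the 8 forming it. Each of the 8 is itself part of the mean, which raises its r. Nothing is therefore read from the place of Nnat or Hcar1 against the 8 in either tissue. The lowest of those 8 was Adrb3 (r = 0.71). Nnat was below all 8 in bone too. For Hcar1 in bone, r lay above that of Adipoq (0.87), Pparg (0.84), Adrb3 (0.82), Lep (0.81) and Retn (0.76). It lay below that of Fabp4 (0.94), Cidec (0.94) and Plin1 (0.98). In skin r with the mean of the 8 was 0.68 for Nnat (rho 0.55, and r = 0.41 without the 2 farthest libraries) and 0.67 for Hcar1 (rho 0.66, and r = 0.50). In bone it was 0.51 for Nnat (rho 0.49, and r = -0.11) and 0.89 for Hcar1 (rho 0.90, and r = 0.86), so the relation of Nnat in bone rested on 2 libraries. Genes most like Nnat in skin were Slc1a3 (r = 0.90), Tdrp (0.88), Prtn3 (0.88), Scp2 (0.86) and Srp9 (0.85), and those most like Hcar1 were Fam13a (0.84), Slc5a3 (0.83), Aqp7 (0.78), St6galnac5 (0.77) and Prkar2b (0.77). Aqp7 encodes the glycerol channel of adipocytes. Within the list, Hcar1 was most like Adrb3 in skin (r = 0.82, rho 0.87) and Nnat most like Fabp4 (r = 0.77, rho 0.74). Of the 8 genes that form the mean, Pparg had the lowest rank correlation with it in skin (rho 0.44). Its r there was 0.78, and 0.12 without the 2 farthest libraries.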

How the data were processed

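The labels describe polyA-selected RNA of skin and bone in 3 treatment groups of 4 replicates, sequenced as paired Illumina reads. Per the submitters' processing notes the tools were FastQC, cutadapt, STAR and RSEM on GRCm38, with no versions. Per the file headers, the authors deposited RSEM expected counts, TPM and FPKM. The deposited FPKM were not used. GENCODE M21 named 55230 of 55471 identifiers (99.57%).

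Expected counts were rounded and tested with edgeR 4.0.16 in R 4.3.3 (filterByExpr, TMM scaling, quasi-likelihood), fitting a tissue's 12 libraries or all 24, with Benjamini-Hochberg adjustment over all genes tested and a threshold of 0.05. Intervals are 95%. TPM served for levels between genes. Alternatives were DESeq2 1.42.0, voom with quality weights (limma 3.58.1), RLE scaling, 2 other filters (none, and 1 CPM in 4 libraries), a replicate block, other groupings and leaving out libraries. The workflow was tested on simulated data. Replicates differed beyond counting noise (chi-square per degree of freedom from 9.54), so none was counted as a duplicate. The labels call them biological, and p-values measure the spread between these samples.

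The 10 genes and the lists were chosen with earlier results of these data known. All 10 genes were named, plus 3 (skin) or 2 (bone) genes of smallest p per fat cell list, the 5 genes most like each pattern, Blcap and Hcar2; 1 gene that the rule names is not reported here. Genes named for fits without the libraries that stand apart were chosen after their values were seen.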

Additional observations from a re-analysis of the deposited data

Results flagged for a closer look

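In bone F-PRT, library 4 had 341 CPM of Fabp4, far above the other 3 libraries of its group, which had 238 to 255 CPM. In bone S-PRT, library 1 had 153 CPM of Adipoq and 38.9 CPM of Cidec, each far above the other 3 libraries of the group (96.8 to 105 CPM and 25.4 to 26.2 CPM). In all, 60 sets of 4 libraries were examined, and chance sets apart about 1 in 20 of them.

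The change with irradiation differed between skin and bone by a test of the difference itself (edgeR, adjusted p under 0.05) for 6 genes. The log2 difference, skin minus bone, was -2.03 for Pparg, -1.26 for Plin1, -1.15 for Fabp4, -1.14 for Cidec, -1.11 for Adipoq and -1.02 for Hcar1. For Pparg the change was -0.84 in skin and 1.17 in bone. Hcar1 was chosen on skin libraries that enter this test, so its p-value is not free of that choice.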

How the results depend on the processing

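In 2118 recomputed values of single genes the direction and the side of the threshold were kept; 43 turned sign, 41 lost and 33 gained a call, and 5 untested values moved. No value that turned sign had passed the threshold in any of these fits. In irradiated against Untreated skin these were Adipoq (0.06 with voom, 0.07 without S-PRT 4 and Untreated 1, -0.22 to 0.04 leaving out 1 library), Cidec (0.00 with the irradiated libraries as 1 group, 0.01 without S-PRT 4 and Untreated 1, -0.16 to 0.04) and Hcar1 (-0.04 to 0.08). For F-PRT against Untreated in skin they were Lep (-0.38 to 0.18) and Retn (-0.07 to 0.15), and for S-PRT Plin1 (-0.29 to 0.13). In bone Nnat ran from -0.14 to 0.75 with irradiation and from -0.28 to 0.61 for S-PRT alone. For F-PRT against S-PRT in bone, the ranges were -0.07 to 0.09 for Pparg, -0.32 to 0.16 for Cidec, -0.08 to 0.37 for Lep, -0.30 to 0.06 for Adrb3 and -0.00 to 0.33 for Hcar1. Without F-PRT 2, F-PRT 3 and Untreated 1 that difference was -0.06 for Pparg and 0.28 for Cidec. The cause of these shifts was not tested.

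The count of genes past the test in irradiated skin was 2 with voom, 0 with the irradiated libraries as 1 group, and 1 to 2 leaving out 1 library. Each beam against Untreated in skin was counted over the 8 genes other than Nnat and Hcar1. For F-PRT in skin the count was 1 with the groups compared alone. For S-PRT in skin it was 1 with DESeq2, 1 with voom and 0 to 2 leaving out 1 library. Leaving out 1 library at a time, the count in bone was 5 to 8 for S-PRT, 5 to 8 for F-PRT and 6 to 8 for both beams. Skin minus bone gave 5 to 8 in the same way. For both beams in bone, Lep was added with DESeq2 (adjusted p = 0.0396) and with no filter on low counts (edgeR adjusted p = 0.0124). Over all genes, irradiated against Untreated skin gave 1047 calls (36.5% higher), but 1631 with DESeq2, 3971 with voom (48.7% higher), 3044 without S-PRT 4 (50.5% higher) and 4855 without S-PRT 4 and Untreated 1 (52.7% higher). It gave 590 without Untreated 2. In bone 46.6% of calls were higher, and 55.7% with no filter. DESeq2 and no filter moved the median of all genes in untreated skin against bone to -0.32 and -0.22.

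Same-numbered libraries had a median correlation of 0.13 in skin, with 7 of 12 pairs over 0.1 (differently numbered ones -0.03, with 8 of 36), and of -0.04 in bone, with 3 of 12 (0.01, with 10 of 36). Not every pair was over 0.1, so the numbers were not taken as pairs. With the replicate block, 9 genes were higher in irradiated bone, with Lep added (1.19, adjusted p = 0.0164), 7 for F-PRT, with Lep added (0.0221), and 8 for S-PRT, with Lep added (0.0447) and Adrb3 lost (0.0722), 1 was lower in irradiated skin and 6 differed between tissues. Plin1 in skin S-PRT stood at -0.04 with the block. Adrb3, Lep, Retn and Hcar1 in bone are low, down to 10 expected counts in a library, which limits their precision.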

Other observations

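In bone, the genes most like Nnat over the 12 libraries were, outside the rule for named genes, Col14a1 (r = 0.86, rho 0.80), Clec3b (0.84, 0.75) and Dpt (0.84, 0.78), which encode proteins of fibroblast matrix, then Ntrk2 (0.82, 0.58) and Cyp2e1 (0.81, 0.57). Within the 10 genes, Nnat in bone was most like Lep (r = 0.87, rho 0.77, and r = 0.71 without the 2 farthest libraries). The genes most like Hcar1 in bone were Dlc1 (r = 0.96, rho 0.96), Smoc1 (0.95, 0.86), Zpr1 (0.94, 0.88), Sod3 (0.94, 0.97) and Lrfn3 (0.93, 0.89).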
